A study of Mus musculus with 21 samples.

Results

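Epithelial cells of the gut are held together by tight junctions, adherens junctions and desmosomes, and the 33 genes described here encode the parts of these junctions in mouse cecum. They were taken by name out of 25361 gene identifiers in the count table, and all 33 were found there. The list holds scaffold and membrane proteins of the tight junction, claudins, desmosomal proteins and a myosin light chain kinase. Its cadherins and catenins and the adhesion protein Epcam are grouped here under the adherens junction. Messenger RNA was sequenced from whole cecum of C57BL/6 mice, an inbred strain, with 1 library per mouse. All mice ate a Total Western Diet, a rodent chow that mimics the nutrient intake of an American diet. The groups were 6 mice with 0% broccoli powder in that diet, 5 mice with 0.5%, 5 mice with 1.0% and 5 mice with 2.5%. Per the series' design text, the mice entered at 3 weeks of age, ate the Western diet alone for 6 weeks and then the diets with or without powder for 3 weeks. The sex of the mice, the cage and the litter are not given in the labels used here. The p-values take each mouse as independent and measure the spread between these mice. A cage or litter shared within a diet is not accounted for in them. The animal numbers in the labels run in blocks by diet with 3 exceptions, and the labels do not say what the numbers stand for. Anything that follows those numbers cannot be told apart from the diet.

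In the tight junction, claudins form the strands between neighbouring cells and set which ions pass, occludin and its relatives of the MARVEL family join those strands, and the zonula occludens proteins tie them to actin. In the adherens junction, E-cadherin binds E-cadherin on the next cell and is linked to actin through beta- and alpha-catenin, and in the desmosome the cadherins desmoglein and desmocollin are linked to keratin filaments through plakoglobin, plakophilins and desmoplakin. Phosphorylation of myosin light chain in the actin ring below the tight junction is a known route by which the gut barrier opens.

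The libraries held between 28514263 and 58594569 counts each. The epithelial keratins and villin (5 of 5 listed genes) summed to between 2374 and 4011 CPM (counts scaled to a common library size, so that libraries can be compared) in every library, and 5 of 5 large intestine markers to between 4261 and 7858 CPM, so the labelled tissue and its markers stood together. Smooth muscle markers (6 of 6) summed to between 1164 and 3119 CPM. Squamous epithelium markers (4 of 4, each with some counts) summed to at most 1.97 CPM. Small intestine and Paneth cell markers summed to 465.6 CPM in 0% replicate 5 and 538.2 CPM in 1.0% replicate 1, against 6.82 to 93.3 CPM in the other 19 libraries. Each of the 8 markers had counts in at least 1 library. Apoa1 was the largest part, with at most 316.6 CPM at 0% and 323.2 CPM at 1.0%. Not all 8 rose with it: Rbp2 peaked at 11.88 CPM at 0% and 10.67 CPM at 1.0%, against 12.22 CPM at 0.5%. Lct reached at most 0.655 CPM on any diet. In 2.5% replicates 3, 4 and 5 the stress and early response genes Fos, Fosb, Jun, Atf3 and Egr1 summed to 1445, 1861 and 1478 CPM, against 581.6 to 1285 CPM in the other 18 libraries. Taken singly, Fos and Egr1 overlapped between the diets. Fos reached 452.6 CPM at 2.5% and 451.1 CPM at 0%. Egr1 had a median of 284.4 CPM and a highest of 400.2 CPM at 2.5%, against a highest of 319.3 CPM at 0% and 324.1 CPM at 1.0%. The 2 libraries high in small intestine markers and these 3 at 2.5% are named again beside the results they bear on. The table mixes all cell types of the tissue, so fewer cells of a type and less RNA per cell cannot be told apart in any value below.

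The highest levels per length belonged to adhesion proteins and claudins. On the scale of mean CPM per kb of exon over the 21 libraries, Epcam stood highest at 315.6 ± 20.9 (SD), followed by Cldn3 at 270.1 ± 29.2, Cdh1 at 234.9 ± 13.8, Cldn7 at 185.6 ± 18.9, Cldn4 at 145.1 ± 73.0, Cdh17 at 136.1 ± 16.9 and Dsg2 at 119.5 ± 14.3. Epcam is an adhesion protein that stabilises claudin 7, Cdh1 encodes E-cadherin, and Cdh17 encodes the liver-intestine cadherin. Desmoplakin (Dsp, 94.3) and the junctional adhesion molecule A (F11r, 92.5) came next. Neighbours in this order often overlapped: the range over libraries of Cldn3 was 234.1 to 354.8 and that of Cdh1 216.1 to 260.9.

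At the low end of the same per-kb scale stood the large scaffolds Patj (7.54), Pard3 (5.75) and Cgnl1 (4.45), the endothelial claudin Cldn5 (6.16) and Cldn1 (0.154). Cldn1 drew 640 counts in all 21 libraries together. With the longest transcript in place of all exons, 22 of the 33 genes took another rank; Pard3, for example, then stood at 14.3 CPM per kb. The exons of Ctnnb1 (beta-catenin, 10.2) overlap Ulk4 on the opposite strand and Mir7090 on its own strand, those of Ctnnd1 (p120 catenin) overlap Gm28635 on the same strand, and Tjp3, Cldn3, Ctnna1, Dsp and Dsg2 each overlap a gene on the opposite strand. Whether the counting used strand is not stated in the labels or the file, so the levels of these 7 genes are uncertain to the extent that reads were shared.

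**Figure D1:**
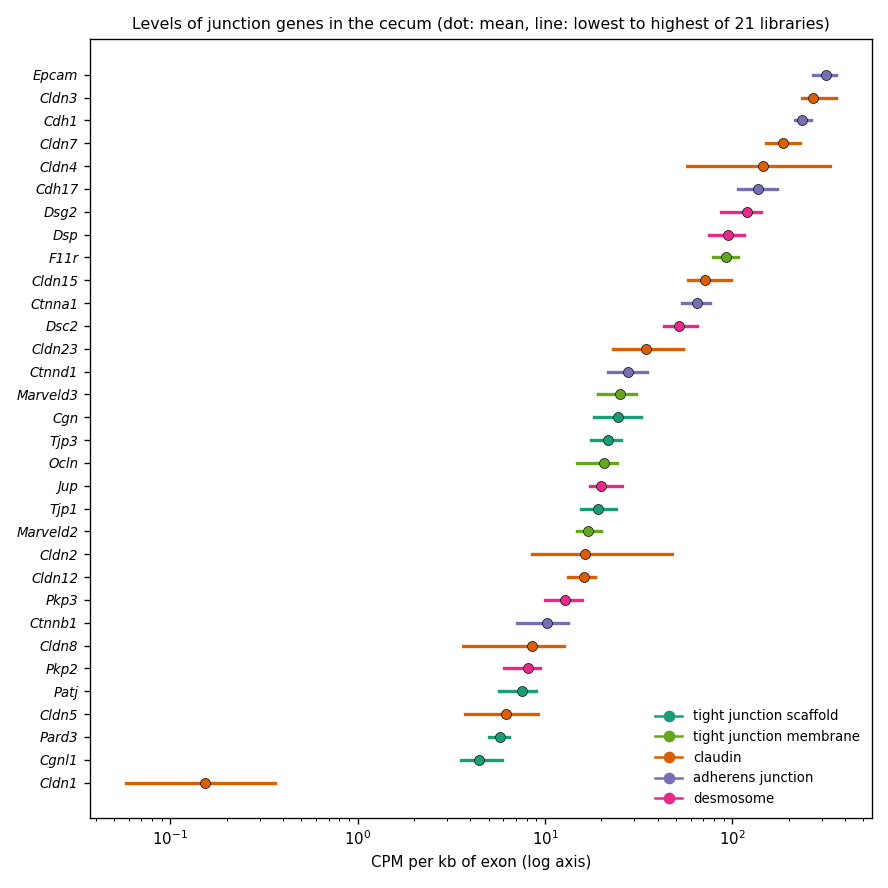
Level of 32 junction genes as CPM per kb of exon on a log axis, coloured by role in the junction, with the mean over 21 libraries as a dot and the lowest to highest library as a line. Epcam, Cldn3 and Cdh1 lead, Cldn1 stands far below all others shown, and the lines of Cldn4, Cldn2 and Cldn1 are the longest; Mylk3, lower still and at 0 in 4 libraries, is not drawn.

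The spread between mice differed widely from gene to gene. The coefficient of variation over all 21 libraries was 5.88% for Cdh1, 6.34% for Pard3 and 6.63% for Epcam. It was 54.1% for Cldn2, 50.3% for Cldn4 and 50.3% for Cldn1, and 26.03% for Cldn23. The highest library held 5.80 times the CPM of the lowest for Cldn4 and 1.21 times for Cdh1.

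No junction gene passed the test for a change with broccoli powder at any amount. In edgeR's quasi-likelihood test with Benjamini-Hochberg adjustment over all 15652 genes tested, 0 of the 32 junction genes that passed the filter on low counts were called at 0.5% against 0%, where 0.00639% of all genes were called. Likewise 0 were called at 1.0% (0.00% of all genes) and 0 at 2.5% (0.109% of all genes). The slope per 1% of powder called 0 of 32 (0.147% of all genes) and the test for any difference among the 4 diets 0 of 32 (0.0256% of all genes). DESeq2 called 1 junction gene at 2.5%, Tjp1, and 2 for the slope, Tjp1 and Cldn23, and none in the other comparisons, and limma voom called 0 in all 5.

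At an unadjusted p under 0.05, 1 of 32 genes was higher at 0.5% (3.26% of all genes) and 1 lower (3.88%), with 7.14% of all genes in either direction. At 1.0% these counts were 0 higher (1.76%) and 0 lower (1.42%), with 3.18% in either direction. At 2.5% they were 4 higher (4.77%) and 0 lower (3.66%), with 8.43% in either direction, and for the slope 4 higher (4.21%) and 0 lower (3.11%), with 7.32% in either direction. The 4 genes at 2.5% were Tjp1, Cldn23, Cldn4 and Dsg2, and the 4 of the slope were Tjp1, Cldn23, Cldn4 and Cgn. For any difference among the diets 4 of 32 had an unadjusted p under 0.05, against 6.41% of all genes. All comparisons against 0% share the same 6 mice.

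As a group the junction genes sat near the rest of the transcriptome. Their median log2 change at 0.5% against 0% was 0.03, and that of all tested genes -0.003, with 22 of 32 above zero against 49.2% of all genes. At 1.0% the median was -0.02, against -0.002 over all genes, with 14 of 32 above zero against 49.4%. With a library left out, this count ran from 9 (without 0% replicate 3 or 1.0% replicate 1) to 19 (without 0% replicate 5). At 2.5% the median was 0.04, against -0.01, with 20 of 32 above zero against 46.9%. These splits hold only under TMM and like scalings: scaled by library totals alone, 8 of 32 genes were above zero at 0.5%, 19 of 32 at 1.0% and 13 of 32 at 2.5%, while the shares of all genes moved to 25.1%, 60.1% and 32.9%. No junction gene had all mice of a powder group above or all below the 6 mice at 0%, at any amount. Over all genes 0.230% lay wholly higher and 0.275% wholly lower at 0.5%, 0.134% and 0.0447% at 1.0%, and 0.454% and 0.211% at 2.5%.

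Most of the changes were bounded to within 0.5 log2 either way, by intervals taken gene by gene without adjustment. An interval inside this limit can still lie above zero, as for Tjp1 and Dsg2 at 2.5%. The 95% interval of the log2 change lay within -0.5 to 0.5 for 27 of the 32 genes at 0.5%, 27 at 1.0% and 26 at 2.5%. The exceptions at all 3 amounts were claudins, namely Cldn1, Cldn2, Cldn4, Cldn5 and Cldn8, joined at 2.5% by Cldn23. E-cadherin (Cdh1) averaged 1070 ± 59.9 CPM at 2.5% and 1083 ± 72.4 CPM at 0% (SD, n = 5 and 6), a log2 change of -0.02 with an interval of -0.16 to 0.13. Epcam averaged 691.1 ± 29.7 CPM at 2.5% and 705.8 ± 62.8 CPM at 0%, with an interval of -0.18 to 0.12 on the log2 scale.

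**Figure D2:**
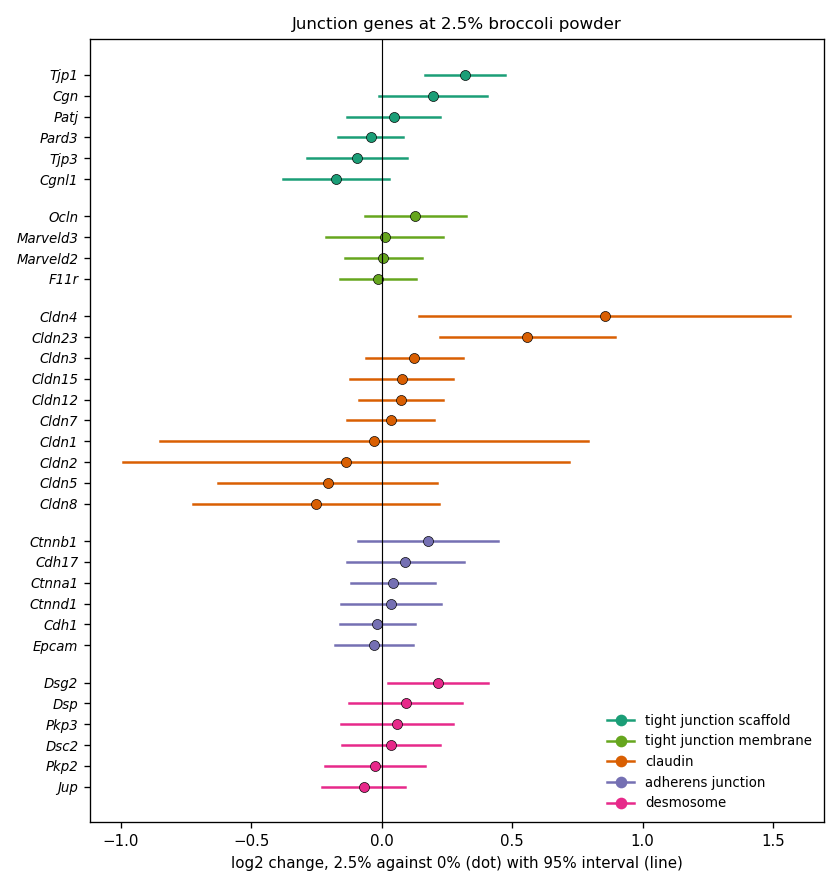
Log2 change at 2.5% against 0% broccoli powder for the 32 tested junction genes, grouped by role, as the edgeR estimate (dot) with its 95% interval (line). The intervals of Tjp1, Cldn4, Cldn23 and Dsg2 lie above zero before adjustment, those of the other 28 genes include zero, and the widest belong to the claudins Cldn1, Cldn2 and Cldn4.

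Among the scaffolds, Tjp1, which encodes the zonula occludens protein ZO-1 that ties claudins and occludin to actin, had the lowest p. It stood at 152.5, 137.2, 132.6, 121.7, 138.5 and 130.5 CPM in the mice without powder. The 5 mice at 0.5% had 151.1, 138.1, 160.9, 156.7 and 145.6 CPM, those at 1.0% had 157.0, 155.3, 145.5, 132.2 and 127.5 CPM, and those at 2.5% had 150.6, 151.3, 180.7, 186.8 and 176.1 CPM. The 3 highest of the 21 libraries were 2.5% replicates 3, 4 and 5. Replicates 1 and 2 lay at the top of the range of the mice at 0%, below only 0% replicate 1. The mean was 169.1 ± 16.99 CPM at 2.5% and 135.5 ± 10.2 CPM at 0% (SD, n = 5 and 6). Its log2 change at 2.5% was 0.32 ± 0.07 (SE), with a 95% interval of 0.17 to 0.47 and an adjusted p of 0.1086 by edgeR. The slope was 0.12 ± 0.03 log2 per 1% of powder, with an adjusted p of 0.1384 by edgeR. Without replicate 1 at 2.5% the change was 0.36 with an adjusted p of 0.03423 by edgeR, and without replicate 2 it was 0.35 with 0.04022. Without replicates 3, 4 and 5 it was 0.15, on 2 mice at 2.5%.

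For this gene the bases before the transcription start are shown because the same mice stood high in Tjp1, Cldn4 and Cldn23. The window is the 250 bases upstream of the start that RefSeq gives on GRCm38.p6, minus strand, chr7:65371245-65371494. It lies inside the span of Tjp1 in GENCODE, at chr7:65296165-65527781, since that annotation has starts further upstream. Capitals mark matches to GGGCGG, the GC box, read on either strand.
Tjp1: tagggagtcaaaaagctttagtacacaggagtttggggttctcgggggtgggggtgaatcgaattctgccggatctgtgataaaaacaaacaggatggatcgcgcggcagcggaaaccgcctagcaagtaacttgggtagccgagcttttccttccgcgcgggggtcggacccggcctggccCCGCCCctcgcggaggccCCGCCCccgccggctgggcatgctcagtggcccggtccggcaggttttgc
The matches run from 68 to 63 and from 50 to 45 bases before the start. A match was present in 32.7% of the 32851 RefSeq windows of this length, in 19 of the 23 junction genes with a window in the table, and 16.7% of all windows had at least 2.

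Cingulin (Cgn) and its paralog paracingulin (Cgnl1) bind ZO-1 and link the junction to the cytoskeleton. Cgn had 158.5, 115.4, 109.6, 144.7, 152.5 and 155.4 CPM at 0%, 126.5, 140.9, 144.6, 144.9 and 154.4 CPM at 0.5%, 166.3, 154.7, 144.1, 128.0 and 143.2 CPM at 1.0%, and 133.0, 149.1, 157.7, 196.4 and 162.0 CPM at 2.5%. Replicate 4 at 2.5% was the highest library and the groups overlapped. The log2 change at 2.5% was 0.20 ± 0.10 (SE; adjusted p = 0.6171 by edgeR) and the slope 0.08 ± 0.04 per 1% of powder (adjusted p = 0.6662 by edgeR). Without 2.5% replicate 4 these were 0.11 and 0.045, and without replicates 3, 4 and 5 both were 0.015.

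Cgnl1 was the scaffold with the lowest p at 0.5%. It had 34.0, 37.8, 41.5, 36.9, 34.8 and 40.3 CPM at 0%, 30.8, 33.1, 31.5, 35.5 and 30.6 CPM at 0.5%, 30.1, 29.8, 46.2, 37.6 and 37.1 CPM at 1.0%, and 34.6, 28.1, 36.8, 30.6 and 36.1 CPM at 2.5%. At 0.5% 4 of the 5 mice lay below all mice at 0%, and the fifth lay inside their range. The log2 change was -0.22 ± 0.10 (SE) at 0.5% with an adjusted p of 0.685, -0.05 ± 0.10 at 1.0% with 0.9992, and -0.18 ± 0.10 at 2.5% with 0.6332, all by edgeR. Of the other scaffolds, Tjp3 (ZO-3) averaged 77.2 ± 6.87 CPM at 2.5% and 82.4 ± 10.2 CPM at 0%. The polarity proteins Pard3 and Patj had log2 changes of -0.04 ± 0.06 and 0.05 ± 0.09 (SE) there.

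The 4 membrane proteins of the tight junction beside the claudins had log2 changes between 0.03 and 0.13 at 0.5%, -0.08 and 0.02 at 1.0%, and -0.02 and 0.13 at 2.5%, and 0 of 4 had an unadjusted p under 0.05 in any of the 5 comparisons. Occludin (Ocln) averaged 91.0 ± 7.28 CPM at 2.5% and 83.3 ± 13.04 CPM at 0%, with a log2 change of 0.13 ± 0.09 (SE; adjusted p = 0.7226 by edgeR). Tricellulin (Marveld2), which seals the corners where several cells meet, had a log2 change of 0.01 ± 0.07, Marveld3 0.01 ± 0.11 and F11r -0.02 ± 0.07 (SE). Ocln and Marveld2 lie 43.2 kb apart on chromosome 13.

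Of the 32 tested genes, claudins held the largest estimated difference at 2.5%, in Cldn4, and the largest coefficients of variation. Cldn4, a claudin of the large intestine that tightens the seal and limits sodium passage in many epithelia, had 296.3, 238.1, 151.2, 104.2, 179.2 and 385.0 CPM at 0%. The mice at 0.5% had 284.6, 158.2, 260.3, 204.0 and 204.9 CPM, those at 1.0% had 236.7, 153.3, 252.5, 136.4 and 247.2 CPM, and those at 2.5% had 215.0, 205.3, 500.0, 604.3 and 516.6 CPM. Replicates 3, 4 and 5 at 2.5% were the highest of all libraries, and replicates 1 and 2 lay in the middle of the range at 0%. The mean was 408.2 ± 185.1 CPM at 2.5% and 225.7 ± 102.9 CPM at 0% (SD). The log2 change was 0.86 ± 0.34 (SE), with a 95% interval of 0.14 to 1.57 and an adjusted p of 0.5062 by edgeR, and the slope 0.36 ± 0.12 with 0.4836. Without replicates 3, 4 and 5 at 2.5% the change turned to -0.11 and the slope to -0.06, and with the early response mean as a covariate the change was 0.24.

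The window before the start of Cldn4 is shown for the same reason as that of Tjp1. It was also chosen because Fos and Jun, which form the AP-1 factor, are in the list whose sum stood high in those mice. Jun had 634.1, 779.1 and 633.5 CPM in 2.5% replicates 3, 4 and 5, above every other library. Fos did not stand apart, with 390.9, 452.6 and 383.6 CPM there. It had 451.1 CPM in 0% replicate 6 and 428.4 CPM in 1.0% replicate 5. The window is RefSeq GRCm38.p6, minus strand, chr5:134946935-134947184, directly before the gene at chr5:134945119-134946934. Capitals mark TGANTCA, the AP-1 element, and CAGGTG, an E-box, read on either strand.
Cldn4: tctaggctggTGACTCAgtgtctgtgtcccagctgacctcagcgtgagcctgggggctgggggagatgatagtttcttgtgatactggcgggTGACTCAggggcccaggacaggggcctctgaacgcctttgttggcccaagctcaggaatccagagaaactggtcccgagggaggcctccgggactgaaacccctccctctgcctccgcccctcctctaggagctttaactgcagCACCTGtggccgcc
The AP-1 letters stood 240 to 234 and 158 to 152 bases before the start. They were found in 6.75% of all windows of this length, and 0.338% of windows held them at least 2 times; 4 of the 23 junction genes with a window had a match, namely Cldn4, Cldn15, F11r and Patj. The E-box stood 14 to 9 bases before the start and was found in 17.2% of windows and in 8 of the 23. The Tjp1 window held no AP-1 letters. Means at 2.5% and 0% were 150.9 and 143.1 CPM for Cldn15, 246.4 and 249.1 CPM for F11r, and 98.4 and 95.4 CPM for Patj. These are letters in a window picked after the pattern was seen. A part of AP-1 in the levels of Cldn4 was not tested, and binding of any factor was not measured.

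Cldn23, a claudin of surface colonocytes, followed the same mice. It had 64.8, 54.0, 42.6, 44.4, 50.6 and 85.1 CPM at 0%, and 57.3, 50.5, 62.2, 50.9 and 68.8 CPM at 0.5%. At 1.0% it had 63.4, 55.4, 65.2, 43.9 and 58.7 CPM, and at 2.5% 70.1, 64.4, 97.2, 100.8 and 86.3 CPM. Replicates 3, 4 and 5 at 2.5% were again the 3 highest, with 0% replicate 6 close below them. The mean was 83.7 ± 16.1 CPM at 2.5% and 56.9 ± 15.9 CPM at 0% (SD). Cldn23 had a log2 change of 0.56 ± 0.16 (SE), with a 95% interval of 0.22 to 0.89 and an adjusted p of 0.2622 by edgeR. The slope was 0.23 ± 0.06 with an adjusted p of 0.195 by edgeR, and this adjusted p was 0.0247 when 0% replicate 6 was left out. Without replicates 3, 4 and 5 at 2.5% the change was 0.24, and with the early response covariate 0.37.

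**Figure D3:**
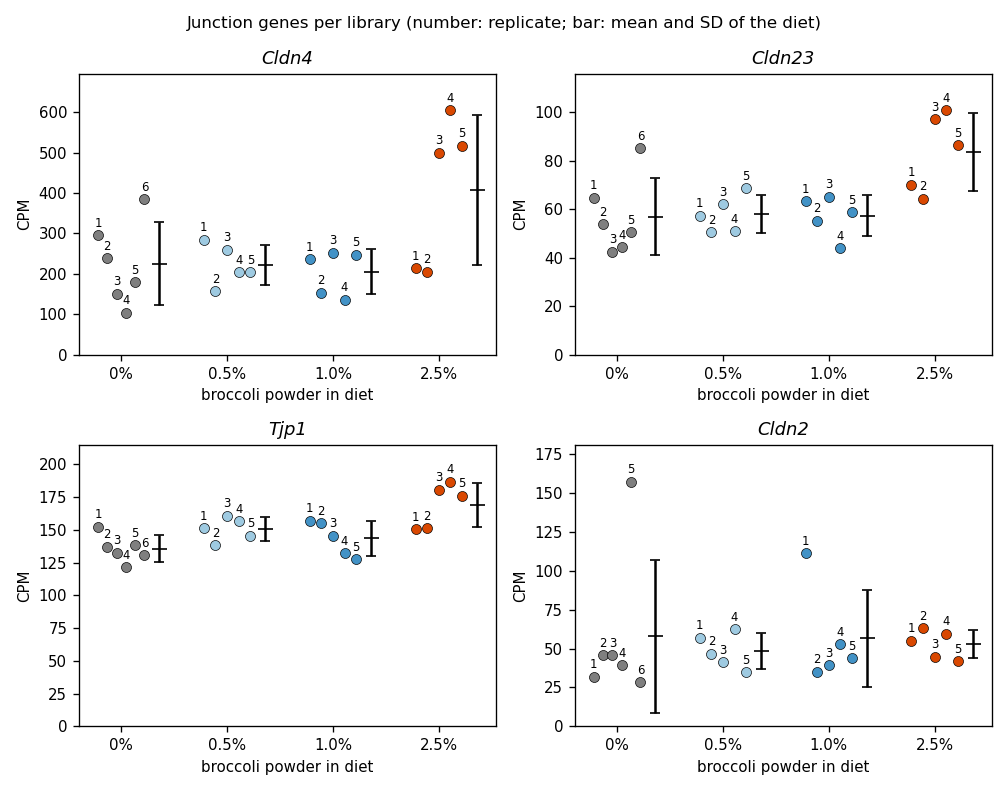
CPM of Cldn4, Cldn23, Tjp1 and Cldn2 in each of the 21 libraries by diet, low to high amount of broccoli powder; numbers are replicates and bars show the mean and SD of a diet. In Cldn4, Cldn23 and Tjp1 the 3 highest points are 2.5% replicates 3, 4 and 5, and in Cldn2 the 2 highest are 0% replicate 5 and 1.0% replicate 1.

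Having exactly 2.5% replicates 3, 4 and 5 as the 3 highest of 21 libraries was shared by Tjp1, Cldn4 and Cldn23 (3 of 32 junction genes) and by 1.19% of all tested genes. No junction gene had them as the 3 lowest, against 0.211% of all genes. On the log2 CPM scale the mean of the early response list was 7.46, 7.91 and 7.60 in these mice, 6.12 and 6.40 in replicates 1 and 2 at 2.5%, and 5.52 to 7.02 in the mice on the other diets. Their epithelial marker means, at 9.11, 9.20 and 8.96, compare with 8.50 to 9.12 in the 16 mice on the other diets. The part of either list in the levels of Tjp1, Cldn4 and Cldn23 was looked at with its mean as a covariate and by correlation. For Tjp1 the log2 change at 2.5% was 0.27 with the early response covariate and 0.29 with the epithelial covariate. With the epithelial covariate the changes of Cldn4 and Cldn23 stayed above zero and neither gene was called. The size of those 2 changes is not given here. Across the 18 libraries left when these 3 are set aside, 0 of 32 junction genes passed a permutation test of Pearson's r with the early response mean, adjusted over the 32. Cldn4 came highest with r = 0.54 (permutation p = 0.02124) and Spearman's rho = 0.51 (permutation p = 0.03383), and r was 0.46 without the 2 libraries farthest from the median. Without those 2 Cldn3 came highest, with r = 0.66 (permutation p = 0.00566, adjusted 0.1811), against r = 0.41 with them.

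**Figure D4:**
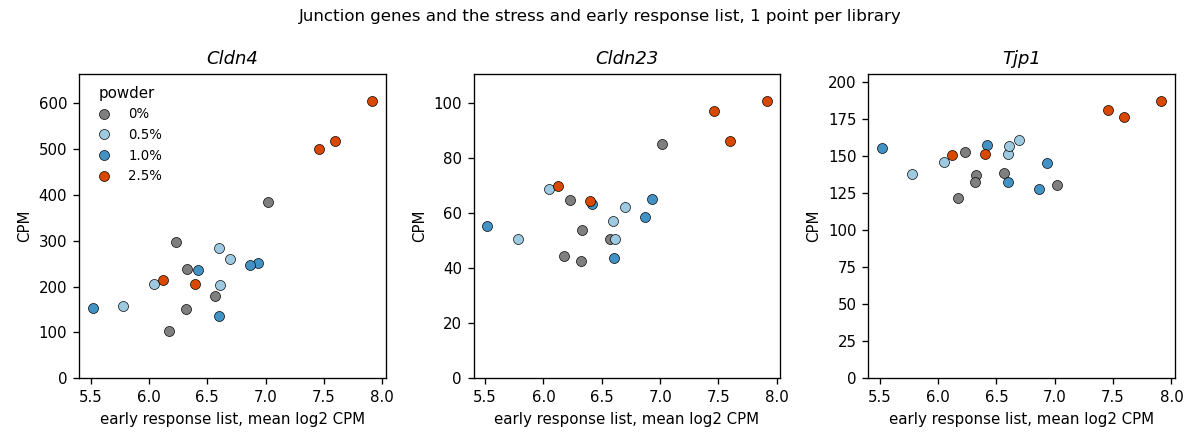
CPM of Cldn4, Cldn23 and Tjp1 against the mean log2 CPM of Fos, Fosb, Jun, Atf3 and Egr1, with 1 point per library coloured by diet. 3 libraries at 2.5% stand apart at list means of 7.46 or more and hold the 3 highest values of each gene, while the other 2 at 2.5% lie among the remaining libraries.

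Cldn2, a claudin that forms a channel for cations and water and is richer in small intestine and crypts, stood far higher in 2 mice than in the others. It had 31.8, 45.9, 45.6, 39.3, 157.3 and 28.2 CPM at 0%, 56.9, 46.7, 41.1, 62.7 and 34.8 CPM at 0.5%, 111.4, 35.1, 39.3, 52.9 and 43.97 CPM at 1.0%, and 55.1, 63.0, 44.7, 59.6 and 41.9 CPM at 2.5%. The 2 highest, 0% replicate 5 and 1.0% replicate 1, are the libraries in which the 8 small intestine and Paneth cell markers summed to 465.6 and 538.2 CPM. Cldn2 was the only junction gene with these 2 libraries on top (1 of 32), as were 3.18% of all tested genes, none had them at the bottom, as did 1.28% of all tested genes, and their part in its level was not tested beyond leaving them out. The log2 change at 2.5% was -0.14 ± 0.41 (SE; adjusted p = 0.9439 by edgeR) with all libraries, and 0.47 without those 2.
The window before the start of Cldn2 (RefSeq GRCm38.p6, plus strand, chrX:139800558-139800807) is shown for contrast with that of Cldn4. Capitals mark TATAAA, the TATA box.
Cldn2: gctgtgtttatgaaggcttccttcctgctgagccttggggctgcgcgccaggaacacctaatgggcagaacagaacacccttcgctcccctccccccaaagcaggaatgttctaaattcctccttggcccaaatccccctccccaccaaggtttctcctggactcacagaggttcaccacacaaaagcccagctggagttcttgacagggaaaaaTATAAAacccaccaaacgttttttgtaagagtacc
The match ran from 35 to 30 bases before the start. It was found in 12.4% of windows and in 5 of the 23 junction genes with a window, and none of the AP-1, E-box or GC box letters were in this window.

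Cldn3 and Cldn7 were the most abundant claudins per length. Cldn3, a sealing claudin whose gene lies 39.3 kb from Cldn4 on chromosome 5, had 314.6, 330.3, 301.2, 294.7, 314.4 and 398.9 CPM at 0% and 368.3, 315.6, 349.1, 312.0 and 321.5 CPM at 0.5%. It had 350.1, 352.2, 333.6, 325.1 and 386.5 CPM at 1.0%, and 330.1, 299.3, 342.3, 446.7 and 355.7 CPM at 2.5%. The groups overlapped, and 2.5% replicate 4 and 0% replicate 6 were the highest. The log2 change was 0.12 ± 0.09 (SE; adjusted p = 0.7212 by edgeR) at 2.5% and 0.10 ± 0.09 (adjusted p = 0.9992 by edgeR) at 1.0%. Without 2.5% replicate 4 the change at 2.5% was 0.03, and without replicates 3, 4 and 5 it was -0.05.

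Cldn7, which partners Epcam at the side of the cell, had 338.2, 342.3, 360.1, 354.0, 402.3 and 380.8 CPM at 0% and 318.0, 295.6, 310.1, 355.6 and 370.1 CPM at 0.5%. It had 444.3, 372.2, 366.5, 372.2 and 354.5 CPM at 1.0%, and 356.6, 326.9, 400.6, 431.7 and 341.5 CPM at 2.5%. At 0.5% 3 of 5 mice lay below all mice at 0%. Cldn7 had log2 changes of -0.14 ± 0.08 (SE; adjusted p = 0.7167 by edgeR) at 0.5%, 0.07 ± 0.08 at 1.0% and 0.03 ± 0.08 at 2.5%.

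Cldn15, which forms a sodium channel in the gut, had 148.4, 123.5, 133.4, 158.0, 153.2 and 142.1 CPM at 0% and 145.3, 170.2, 162.6, 144.4 and 156.7 CPM at 0.5%. It had 138.1, 148.3, 141.8, 149.1 and 209.5 CPM at 1.0%, and 130.0, 149.9, 149.2, 178.1 and 147.4 CPM at 2.5%. Replicate 5 at 1.0% stood above all other libraries; the log2 change at 1.0% was 0.14 ± 0.10 (SE; adjusted p = 0.9992 by edgeR) with it and 0.01 without it. Of the remaining claudins, Cldn8 averaged 18.1 ± 5.52 CPM at 2.5% and 21.5 ± 6.62 CPM at 0%, Cldn12 69.99 ± 5.57 and 66.5 ± 8.13 CPM, and Cldn5 7.95 ± 2.30 and 9.19 ± 2.54 CPM (SD). The endothelial marker list, 6 of 6 genes, summed to between 115.9 and 146.3 CPM at 2.5% and between 124.7 and 147.6 CPM at 0%. Cldn1 averaged 0.790 ± 0.399 CPM at 2.5% and 0.803 ± 0.341 CPM at 0%. The interval of its log2 change at 2.5% reached 0.79 upward and 0.85 downward. It drew between 10 and 74 counts per library, and the part of low counts in the width of that interval was not tested.

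The 6 adherens junction genes had log2 changes between -0.06 and 0.10 at 0.5%, -0.10 and 0.02 at 1.0%, and -0.03 and 0.18 at 2.5%, with 0 of 6 at an unadjusted p under 0.05 in any of the 5 comparisons. Beta-catenin (Ctnnb1) marked the upper end at 2.5% with 0.18 ± 0.13 (SE; adjusted p = 0.7217 by edgeR), at 58.0 ± 5.17 CPM at 2.5% and 51.3 ± 11.9 CPM at 0%. Alpha-catenin (Ctnna1) averaged 426.4 ± 17.1 CPM at 2.5% and 414.1 ± 40.7 CPM at 0%, p120 catenin (Ctnnd1) 206.3 ± 16.96 and 201.2 ± 27.2 CPM, and Cdh17 631.4 ± 40.3 and 592.9 ± 88.0 CPM (SD).

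In the desmosome, desmoglein 2 (Dsg2), the desmosomal cadherin of simple epithelia, had 1089, 1024, 807.7, 876.0, 1018 and 719.0 CPM at 0% and 1176, 962.4, 1126, 976.3 and 1038 CPM at 0.5%. It had 986.4, 953.2, 948.7, 859.8 and 822.0 CPM at 1.0%, and 1005, 1077, 1081, 1045 and 1149 CPM at 2.5%. The mice at 2.5% lay close together in the upper part of the range at 0%, with replicate 5 above it, and the mice at 1.0% in its middle. The log2 change was 0.19 ± 0.09 (SE; adjusted p = 0.685) at 0.5%, -0.01 ± 0.09 (adjusted p = 0.9992) at 1.0% and 0.22 ± 0.09 (adjusted p = 0.5292) at 2.5%, by edgeR, so the values did not follow the amount of powder. In contrast to Cldn4, the change in Dsg2 was 0.17 without 2.5% replicates 3, 4 and 5.

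Desmocollin 2 (Dsc2), its partner cadherin 498.5 kb away on chromosome 18, had 266.7, 308.7, 235.3, 254.4, 340.1 and 239.5 CPM at 0% and 329.9, 266.4, 289.0, 263.2 and 288.7 CPM at 0.5%. It had 289.0, 241.9, 257.8, 254.3 and 227.7 CPM at 1.0%, and 248.6, 305.1, 273.3, 284.4 and 292.5 CPM at 2.5%. The groups overlapped throughout, and the log2 change was -0.11 ± 0.09 (SE; adjusted p = 0.9992 by edgeR) at 1.0% and 0.03 ± 0.09 at 2.5%. Desmoplakin (Dsp) averaged 965.7 ± 80.2 CPM at 2.5% and 905.7 ± 135.6 CPM at 0%, plakoglobin (Jup) 126.1 ± 9.72 and 132.4 ± 17.7 CPM, Pkp2 42.9 ± 3.77 and 43.7 ± 6.93 CPM, and Pkp3 46.8 ± 4.75 and 44.9 ± 6.64 CPM (SD).

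Mylk3, the myosin light chain kinase in the list, is the form of heart muscle, and it drew 96 counts in the 21 libraries together, with 4 libraries at 0. It was left out by the filter on low counts. The kinase of smooth muscle and of the intestinal epithelium is encoded by Mylk, which lay between 760.0 and 1679 CPM in the 21 libraries, with a log2 change of -0.10 ± 0.15 at 2.5% (SE; adjusted p = 0.8839 by edgeR). These Mylk values mix muscle and epithelium of the cecal wall, so they do not give the level of the epithelial kinase. The 4 heart muscle markers summed to at most 2.43 CPM in any library.

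How far the junction genes moved with the epithelium from mouse to mouse was described with Krt8, Krt18, Krt19, Krt20 and Vil1, none of which is a junction gene. Both libraries with a mean above 2.5 log2 CPM on the small intestine list were set aside, leaving 19. Of the 32 junction genes 23 had a positive Pearson's r with the mean of these 5 markers, against 46.5% of all tested genes, and 9 had an r of at least 0.5, against 6.84% of all tested genes. In a permutation test with 100000 resamples, adjusted over the 32 relations, 5 passed. Cldn3 led with r = 0.85 (permutation p = 2.000e-05, adjusted 0.00064) and Spearman's rho = 0.87, and 0.0703% of all genes had an r as high. Cldn4 had r = 0.73 and rho = 0.68 (adjusted permutation p for r = 0.004587), and plakoglobin (Jup) r = 0.71 and rho = 0.74 (0.004587). Plakophilin 3 (Pkp3) had r = 0.66 and rho = 0.72 (0.01592), and Cldn23 r = 0.59 and rho = 0.51 (0.04941). Cldn23 no longer passed by rho, nor without the 2 libraries farthest from the median of the marker mean, 0.5% replicate 2 and 2.5% replicate 4, where its r was 0.46.

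Only Cldn3 (r = 0.85, adjusted permutation p = 0.00128) and Jup (r = 0.78, adjusted permutation p = 0.00176) of these 5 still passed among the 16 libraries left without 2.5% replicates 3, 4 and 5, while Cldn4 had r = 0.57 and Pkp3 r = 0.57. Cdh1 had r = 0.58, with an adjusted permutation p of 0.05173 for r, and passed by rho at 0.62. Tjp1 had r = 0.42 in the 19 libraries and -0.04 in those 16. Ocln, Pard3, Marveld2, Marveld3, Cldn8, Cldn12, Cldn1, Ctnnd1 and Pkp2 had r below zero. The markers and the junction genes come from the same libraries and share their scaling.

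**Figure D5:**
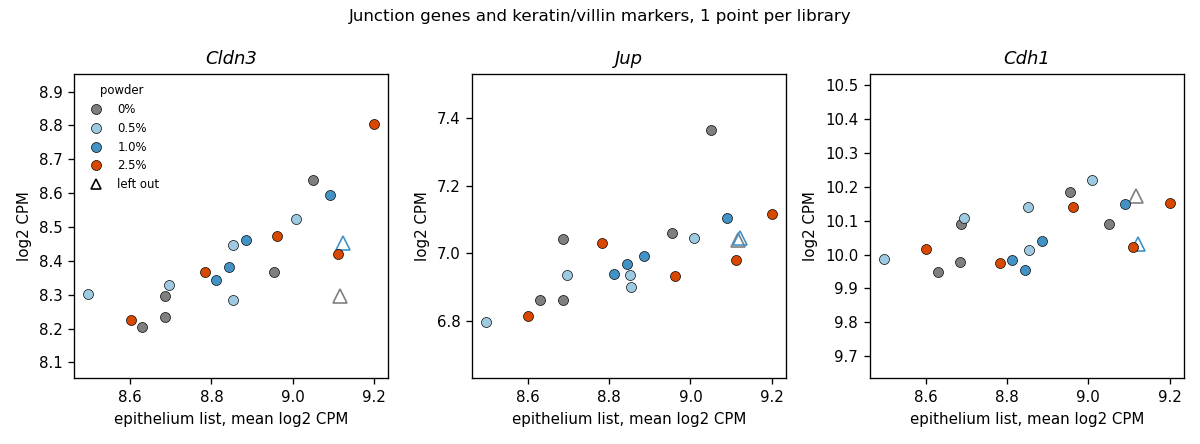
Log2 CPM of Cldn3, Jup and Cdh1 against the mean log2 CPM of Krt8, Krt18, Krt19, Krt20 and Vil1, with 1 point per library coloured by diet; open triangles are the 2 libraries set aside. Cldn3 and Jup run upward with the markers over the 19 filled points (r = 0.85 and 0.71), Cdh1 less closely (r = 0.58), and the 4 diets lie intermixed.

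The wider junction machinery was read from a list of 80 further symbols, in which PALS1 stands under both Mpp5 and Pals1; 76 were found in the table and 63 passed the filter on low counts. None was called at any amount by edgeR with all 21 libraries. At 2.5% 3 were higher and 4 lower at an unadjusted p under 0.05, against 4.77% and 3.66% of all genes, 28 of 63 had a positive log2 change, and the median was -0.02. The 3 lowest p-values among the higher ones belonged to desmoglein 3 (Dsg3), Mpp5 (PALS1, the scaffold of the Crumbs complex) and Prkci (atypical protein kinase C iota). Dsg3 had 10.2, 7.73, 13.95, 12.51 and 12.8 CPM at 2.5%, against 6.87, 7.41, 5.77, 6.39, 7.24 and 6.64 CPM at 0%, so that all mice at 2.5% lay above all mice at 0%, as in 1 of the 63 genes and 0.454% of all genes. Its log2 change was 0.77 ± 0.20 (SE; adjusted p = 0.1779 by edgeR), and it was called by DESeq2 (0.77, adjusted p = 0.02912) and by edgeR without the 6 libraries highest in small intestine markers (0.99, adjusted p = 0.0386). Without 2.5% replicates 3, 4 and 5 it was 0.41. Mpp5 had a log2 change of 0.28 ± 0.08 (adjusted p = 0.2551 by edgeR) and Prkci 0.21 ± 0.09 (adjusted p = 0.5412 by edgeR). In both genes 2.5% replicates 3, 4 and 5 were the 3 highest libraries, and without them the changes were 0.12 and 0.031. On the lower side, Ildr2 had -0.84 ± 0.32, Dsc3 -1.70 ± 0.65 and the alpha-catenin relative Ctnnal1 -0.27 ± 0.12 (SE), with adjusted p of 0.4812, 0.4833 and 0.5506 by edgeR. Ctnnal1 was -0.13 without 0% replicate 5, which is high in small intestine markers and held 29.2 CPM, against at most 20.9 CPM in the other mice at 0%. Ildr2 reached at most 1.79 CPM and Dsc3 at most 0.551 CPM in any library, so their changes rest on few counts. Dsg3 and Dsc3 are desmosomal cadherins of squamous epithelium, and the 4 squamous markers summed to between 0.127 and 0.326 CPM at 2.5% and between 0.0661 and 1.97 CPM at 0%; the part of squamous cells in these values was not tested.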

How the data were processed

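Per the labels' protocols, RNA of mouse cecum was extracted and sequenced with a stranded poly-A messenger RNA kit, 1 library per animal. The authors deposited raw read counts per Ensembl gene for 21 libraries; the submitters' processing notes name the build mm10. No label or file header names the aligner, the counter, the annotation or the strand setting. Of 25361 gene identifiers 25268 were named with GENCODE M21 (the same build), and 5881 had no counts. Every column belonged to a sample. Total counts per library ran from 28514263 to 42687431 (0%), 35057688 to 50757142 (0.5%), 37327202 to 58594569 (1.0%) and 33132637 to 39675518 (2.5%).

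Diets were compared with edgeR 4.0.16 (quasi-likelihood test, robust, TMM scaling, filterByExpr by diet, R 4.3.3) over all 21 libraries, which left 15652 genes, and p-values were adjusted by Benjamini-Hochberg over all of them; calls use 0.05 as the limit of the adjusted p. Standard errors are the log2 change divided by the square root of the test's F. CPM are counts divided by the TMM-scaled library size and set to the usual common total, and log2 CPM add a prior count of 2. Levels were divided by the summed exon length. DESeq2 1.42.0, limma voom 3.58.1, other scalings, covariates and libraries left out were tried as alternatives. Correlations used 100000 permutations (scipy 1.17.1), two-sided. The 23 upstream windows came from RefSeq GRCm38.p6.

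The junction genes, the marker lists and the further junction genes were chosen with earlier results of these data known. Values in every library are given for the genes called and for the 4 of lowest p in each of the 5 comparisons, 10 junction genes in all; Cldn2 was added after its values were seen. Of the further genes, the 3 of lowest p in each direction at 2.5% were named. Cldn20 and Pals1 (by that symbol) were not analysed here, and Igsf5 and Myl12b, which have several identifiers, were left out.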

Additional observations from a re-analysis of the deposited data

Results flagged for a closer look

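In groups of 5 or 6 mice, a library was singled out when its gap to the nearest other library, divided by the range of its group, passed Dixon's 95% critical value. This happened in 14 of 132 groups of junction gene values. For normal and independent values about 1 in 20, or 6.6, would be singled out. Genes measured in the same library are not independent, so 14 beside 6.6 is no test of an excess.

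Replicate 1 at 1.0%, which is high in small intestine markers, stood above its group in Ocln (102.4 CPM), Cldn1 (1.758 CPM), Cldn2 (111.4 CPM), Cldn7 (444.3 CPM) and the intestinal cadherin Cdh17 (777.8 CPM). Replicate 5 at 0%, the other library high in those markers, stood above its group in Cldn2 (157.3 CPM). Replicate 6 at 0% stood above its group in Cldn3 (398.9 CPM) and plakoglobin Jup (164.9 CPM). Replicate 5 at 1.0% was high in Cldn15 (209.5 CPM) and low in plakophilin Pkp2 (37.97 CPM). Ctnna1 was high in 0.5% replicate 1 (481.2 CPM) and Ctnnb1 in 2.5% replicate 4 (67.02 CPM). Cldn8 was low in 2.5% replicate 1 (8.551 CPM), and Mylk3 was at 0 in 2.5% replicate 3, its mean at 2.5% being 0.108 CPM.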

How the results depend on the processing

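No paired analysis was possible because the labels number animals without pairing them across diets. With each of the 21 libraries left out in turn, the number of junction genes called ranged from 0 to 1 at 2.5% (1 without 2.5% replicate 1 or 2, Tjp1) and from 0 to 1 for the slope (1 without 0% replicate 6, Cldn23), and it stayed 0 at 0.5%, at 1.0% and for any difference. Genes called over the whole table then ranged from 0 to 2 at 0.5%, 0 to 56 at 2.5%, 0 to 56 for the slope and 0 to 35 for any difference, in the last 3 highest without 2.5% replicate 1 and 0 without 2.5% replicate 3 or 4. For any difference the count was also 0 without 0% replicate 3, a mouse without powder.

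DESeq2 called 2 genes at 0.5%, 84 at 2.5%, 60 for the slope and 68 for any difference, with 1 junction gene at 2.5% (Tjp1, adjusted p = 0.01567) and 2 for the slope (Tjp1 0.04451 and Cldn23 0.04143). limma voom called 7 at 2.5%, 9 for the slope and 2 for any difference. Library totals alone gave 7 at 2.5%. With smooth muscle and small intestine covariates 14 were called at 0.5%, 8 for the slope and 7 for any difference, and with the epithelium covariate 5 at 2.5% and 6 for the slope. With the 2 diets alone 0 were called at 0.5% and 0 at 2.5%, and with dose as a rank 0 for the slope. Without animals numbered above 70 the counts were 0 at 0.5%, 5 at 2.5%, 13 for the slope and 0 for any difference. Without the 2 mice of high small intestine marker sums they were 5 at 2.5%, 11 for the slope and 2 for any difference.

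Of the settings chosen after seeing the data, leaving out the 6 libraries highest in small intestine markers gave 0 genes at 0.5%, 121 at 2.5%, 101 for the slope and 86 for any difference, with 1 junction gene at 2.5% and 1 for the slope, Tjp1 in both. The early response covariate gave 0 at 0.5%, 0 at 2.5%, 0 for the slope and 0 for any difference, and so did leaving out 2.5% replicates 3, 4 and 5 (0, 0, 0 and 0), which leaves 2 mice at 2.5%.

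Small log2 changes at 2.5% changed sign. Cldn7 was -0.024 under library totals, -0.002 with the epithelium covariate, -0.025 with the early response covariate and -0.090 without 2.5% replicates 3, 4 and 5, and ranged from -0.026 to 0.073 with a library left out. Dsc2 was -0.024 under library totals and ranged from -0.006 to 0.106. Without 2.5% replicates 3, 4 and 5, Cldn15 was -0.035, Cldn3 -0.053, Cldn4 -0.106 (slope -0.056) and Cldn2 0.019. Cldn2 was 0.110 in limma voom, 0.469 without the 2 libraries and 0.352 without the 6 high in small intestine markers, and ranged from -0.278 to 0.469. Without the 2 libraries farthest from the median, r with the epithelial markers was -0.040 for Patj, -0.091 for Cldn2, -0.049 for Dsg2 and -0.019 for Dsc2. The causes of these shifts were not tested. Cldn1 and Mylk3 were the most thinly counted, at 640 and 96 counts in all.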
